A study of Mus musculus with 15 samples.

Results

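The liver response of mice to a phytosterol diet was described across all expressed protein-coding genes, above all outside cholesterol synthesis. Of the 15 RNA-seq libraries of the study, 9 came from liver, 4 from the control diet group (CS) and 5 from the group whose diet held 2% phytosterols (PS), with 1 library for each mouse. The other 6 libraries came from lung and were not used here. All mice were male wild-type C57BL/6J, an inbred laboratory strain, and the labels give their age as 28 weeks, although the study's text gives this as the feeding time, which would make the mice older. The time of day and the feeding state at which the livers were taken are not given in the sources used here. Members were chosen as the protein-coding genes with enough counts for edgeR's filter, 11869 of the 22046 protein-coding genes of the table.

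Phytosterols are plant sterols that resemble cholesterol, compete with it in the gut and are pumped back out of gut and liver cells by the transporter made of ABCG5 and ABCG8. The liver makes cholesterol, turns it into bile acids, stores and burns fatty acids and breaks down foreign compounds. Many of these pathways follow the time of day, because a circadian clock of activators (BMAL1 with CLOCK or NPAS2) and repressors (PER, CRY and REV-ERB proteins) drives them, and because meals switch them between storage and fasting use.

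A level is given as CPM, a count scaled to library size by the TMM method, which sets the libraries to a common level by the bulk of their genes, and FPKM, which also divides by gene length, is used where genes are ranked against each other. Total counts per library ranged from 14410117 to 17625179. Hepatocyte markers dominated every library, with a summed level of 93014 to 140350 CPM in CS and 107800 to 148170 CPM in PS. With all livers, 0 of the 10 markers were called. Alb had a log2 fold change of 0.40 and, when CS replicate 2 was left out, was called higher by 0.48. CS replicate 2 stood apart from the other control livers. It held 14.4% of its counts on the mitochondrial genome, against 3.33% to 4.45% in the other CS livers and 4.81% to 13.3% in the PS livers, and it had 131 CPM of Ighm, the heavy chain of immunoglobulin M, against 4.08 to 11.7 CPM elsewhere. The 20% of genes with the highest GC content lay in this library a median of 0.33 above the average library on the log2 scale. None of the 4 library measures differed between the diets in a two-sided exact permutation test, with adjusted p from 0.825 to 0.952, but without CS replicate 2 the mitochondrial share was 3.98 percentage points higher in PS (unadjusted exact permutation p = 0.0357). The share of these features in any result was not tested. Counts over the lists of gene functions below are given with and without CS replicate 2, and those of transcription factors and cell type markers with all livers only.

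A gene is called here at an unadjusted p of at most 0.05 in edgeR's quasi-likelihood test, and rose or fell below means called in that direction. By this rule 443 of the 11869 genes rose in the PS group (3.73%) and 453 fell (3.82%), while 5% of these tests amounts to 593 genes. After Benjamini-Hochberg adjustment over all genes tested, edgeR called 0 protein-coding genes at an adjusted p under 0.05 in either direction. The smallest adjusted p was 0.054. The Wald test of DESeq2 called 94 genes as higher (0.792%) and 50 as lower (0.421%) after adjustment, and 522 (4.4%) and 561 (4.73%) without it. When CS replicate 2 was left out, edgeR called 863 genes as higher (7.21%) and 817 as lower (6.83%) without adjustment, and with it 33 (0.276%) and 20 (0.167%). The median log2 fold change of all genes was -0.037.

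**Figure D1:**
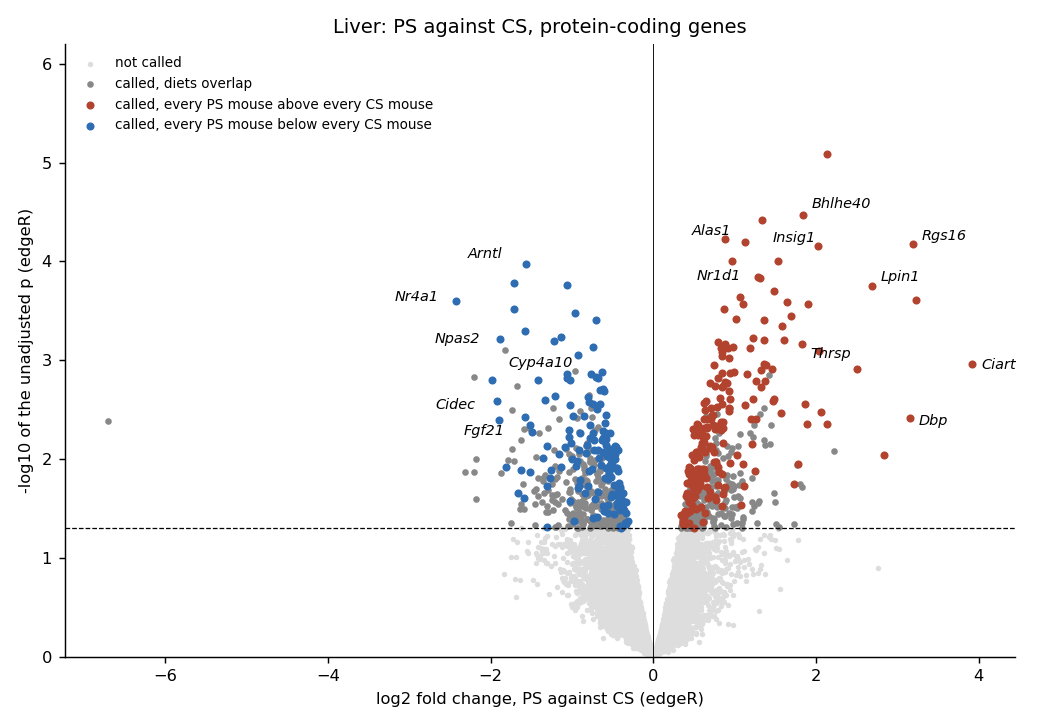
Each point is a protein-coding gene, with its log2 fold change between the PS and CS livers on the x axis and -log10 of edgeR's unadjusted p value on the y axis, where the dashed line marks the call threshold. The 207 red and 154 blue genes were called and did not overlap between the diets; Ciart, Rgs16 and Dbp lie farthest to the right among the labelled genes, and Nr4a1 farthest to the left of them.

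The levels of all PS mice exceeded those of all CS mice in 243 genes (2.05%), and were under them in 196 (1.65%). Of these genes 207 (1.74%) and 154 (1.3%) were also called, 361 in all or 3.04% of the genes tested, and 57 and 40 of them differed by at least 1 on the log2 scale. Their shared functions were read from 32 lists of liver functions, beside the enzymes of cholesterol synthesis and the other genes that the study names. The enzymes of cholesterol synthesis held 10 of the 207 genes and 0 of the 154. The 11 lists of clock, sterol, bile acid, fatty acid, glucose, amino acid and detoxification genes held 381 tested genes, 3.21% of all, and 52 of the 361 genes without overlap, 14.4%. Put the other way, 13.6% of the genes in these 11 lists were called with no overlap. For the better expressed genes, those of mean log2 CPM 5 or more, these shares were 12.2% in the 11 lists and 3.89% over all genes. The same shares without CS replicate 2 were 28.5% in the 11 lists and 8.12% over all genes. The lists, and the 11 pooled here, were chosen with earlier results of these data known. Their higher shares are therefore a description and not independent evidence.

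Transcription factors held 34 of the 361 genes in the annotation deposited with the counts, and 25 of these were higher and 9 lower in the PS group. This was 4.10% of the 830 transcription factors tested, beside 3.04% of all genes. Of the 361 genes, 264 stood in no list, 138 of them higher and 126 lower. At the other end, 0 of 80 cytosolic ribosomal protein genes, 0 of 76 mitochondrial ribosomal protein genes and 0 of 80 nuclear genes of the respiratory chain were called, with median log2 fold changes of -0.064, 0.01 and 0.008. Without CS replicate 2, 1, 4 and 0 of their genes were called higher and 2, 4 and 0 lower, where 7.21% and 6.83% of all genes were called. The 13 protein-coding genes of the mitochondrial genome were not called either, with a median of 0.24, but without CS replicate 2 their median was 1.16 and 8 of them were called higher.

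**Figure D2:**
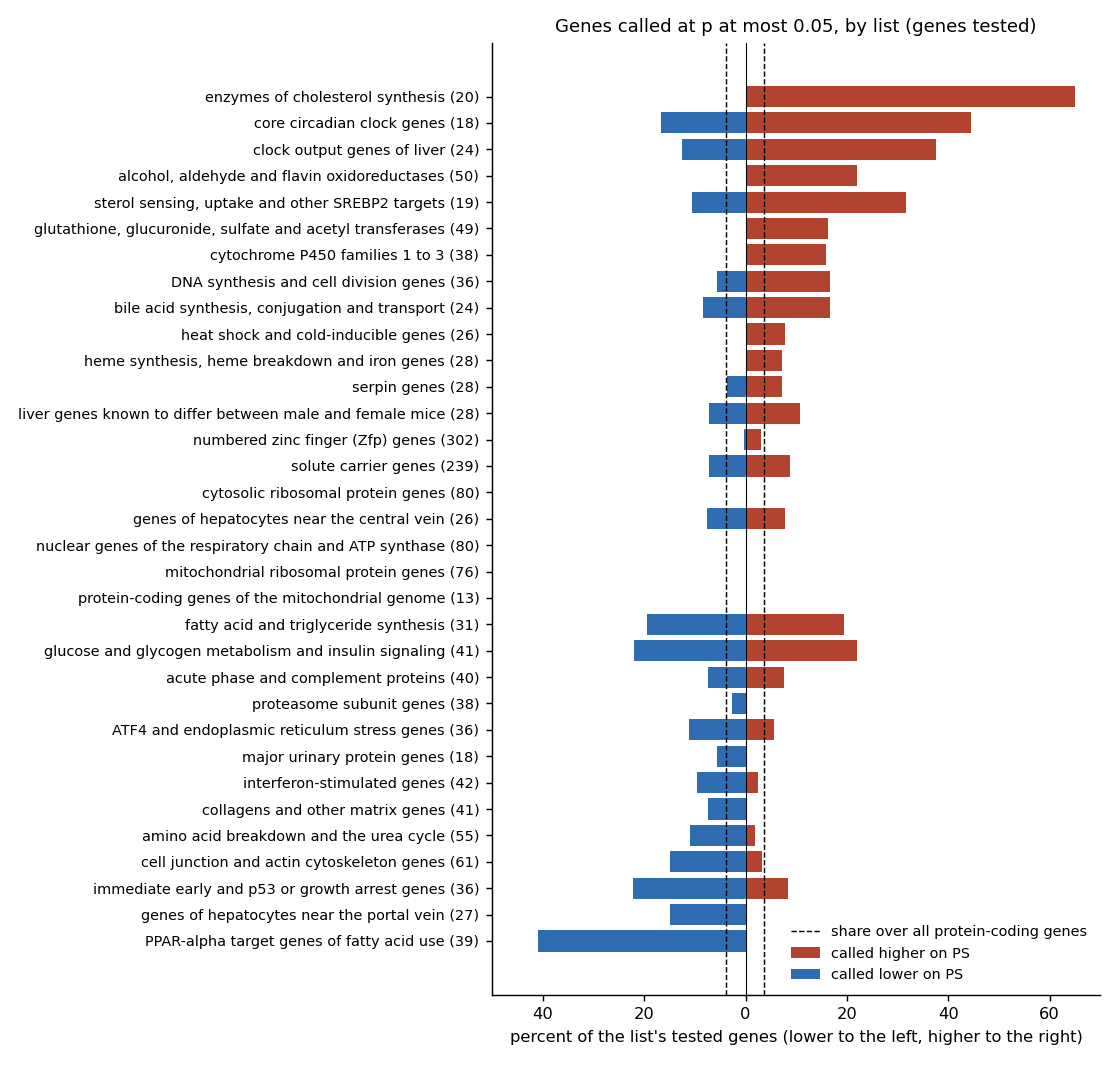
Bars give the percent of each list's tested genes that were called at an unadjusted p of at most 0.05, lower on PS to the left and higher on PS to the right, with the number of genes tested in brackets. Dashed lines mark the shares over all protein-coding genes, 3.82% lower and 3.73% higher; PPAR-alpha targets reached 41.0% lower, and core clock genes 44.4% higher and 16.7% lower.

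Core clock genes and the genes the clock drives differed between the diets in both directions. Of 18 core clock genes tested, 8 rose (44.4%) and 3 fell (16.7%), beside 3.73% and 3.82% of all genes. Of these clock genes 4 and 2 did not overlap, where 1.74% and 1.3% of all genes rose and fell with no overlap. Of 24 clock output genes of the liver, 9 rose (37.5%) and 3 fell (12.5%), and without CS replicate 2 these were 12 and 4, beside 7.21% and 6.83% of all genes. Npas2 stands in both lists, so its fall is counted in each. The core clock genes that rose, Nr1d1, Nr1d2, Bhlhe40, Bhlhe41, Per1, Per2, Per3 and Ciart, encode repressors, whereas those that fell encode the activators BMAL1 and NPAS2 and the repressor CRY1.

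Ciart, a repressor of the clock on chromosome 3 from 95878503 to 95882251 (GRCm38), was at 0.166, 2.76, 0.0580 and 0.256 CPM in the CS mice and at 19.6, 5.12, 19.2, 4.21 and 11.9 CPM in the PS mice. No PS mouse was as low as any CS mouse, and CS replicate 2 was the highest control. Its log2 fold change was 3.92 ± 0.90 (SE, adjusted p = 0.214 by edgeR), and without CS replicate 2 it was 6.18. The CS counts were few, with as little as 1 read, so the size of this fold change is uncertain.

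Dbp, the D-box-binding activator on chromosome 7 from 45705088 to 45710203, stood at 0.828, 26.6, 4.41 and 2.30 CPM in CS and at 108, 28.4, 91.4, 37.9 and 112 CPM in PS. The groups touched closely, since CS replicate 2 lay just under PS replicate 2. Its log2 fold change was 3.15 ± 0.87 (SE, adjusted p = 0.321 by edgeR), and 4.91 without CS replicate 2. The exons of Dbp share 539 bases with Sphk2 on the other strand, and whether reads were counted by strand is not given, so reads of the pair cannot be told apart there. Rgs16, which speeds the switching-off of G proteins and lies on chromosome 1 from 153740349 to 153745468, was at 11.4, 35.3, 13.99 and 8.32 CPM in CS. In PS it was at 205, 78.2, 172, 76.2 and 254 CPM, so the lowest PS mouse was above the highest control. The log2 fold change of Rgs16 was 3.19 ± 0.52 (SE, adjusted p = 0.0974 by edgeR), and 3.80 without CS replicate 2.

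Among the repressors, Bhlhe40 (DEC1) was at 15.8, 15.9, 26.3 and 24.3 CPM in CS and at 82.2, 46.2, 53, 103 and 82.8 CPM in PS. The diets were clearly apart and CS replicate 2 lay with the other controls, with a log2 fold change of 1.84 ± 0.28 (SE, adjusted p = 0.0974 by edgeR). Nr1d1, which encodes REV-ERB-alpha, was at 40.7, 41.0, 38.4 and 20.4 CPM in CS and at 88.6, 76.3, 73.1, 82.4 and 109 CPM in PS. Every PS mouse was above the controls, with a log2 fold change of 1.29 ± 0.23 (SE), although its exons share 263 bases with Thra on the other strand. Nr1d2, its relative, rose by 0.82, and Hlf, a PAR bZIP factor like Dbp, by 0.85, both with no overlap. Wee1, a kinase that holds back cell division and a known clock target, had a log2 fold change of 1.26.

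The activators went the other way. Arntl, the gene of BMAL1 on chromosome 7 from 113207465 to 113314126, was at 21.4, 13.9, 23.2 and 15.6 CPM in CS and at 4.02, 9.66, 5.01, 7.02 and 5.37 CPM in PS. All PS mice were below all controls, with a log2 fold change of -1.57 ± 0.27 (SE, adjusted p = 0.0974 by edgeR). Npas2, a partner of BMAL1, was at 4.97, 4.11, 7.55 and 2.24 CPM in CS and at 1.78, 1.76, 1.17, 1.01 and 0.663 CPM in PS, again without overlap, and its log2 fold change was -1.88 ± 0.40 (SE). Clock, the other partner, was not called, with a log2 fold change of -0.18 ± 0.31 (SE) with all livers and -0.45, also not called, without CS replicate 2.

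The period genes were called but overlapped, through the same control liver; they, the other called genes that overlap, and Clec4f, Fcna and Klf15 were chosen after their values were seen. Per1 was at 5.52, 39.6, 12.6 and 9.86 CPM in CS and at 41.7, 26.7, 49.4, 32.9 and 31.2 CPM in PS, and Per2 at 3.53, 26.1, 7.66 and 4.42 CPM and at 55.8, 16.4, 50.7, 25.8 and 28.0 CPM. In each the only control among the PS values was CS replicate 2. Per1 had a log2 fold change of 1.11 with all livers and 1.96 without this one, Per2 1.76 and 2.76, and Per3 1.72 and 3.32. Tef and Usp2, known clock outputs, showed the same picture, with 164 and 28.9 CPM in CS replicate 2 against at most 72.7 and 5.92 CPM in the other controls. Cry1 and Nfil3, a repressor of D-box genes, fell by 0.78 and 0.94 on the log2 scale with all livers. Without CS replicate 2, 8 core clock genes rose and 3 fell, and all 11 of them then had no overlap, beside 5.18% higher and 5.52% lower over all genes.

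The promoters of the clock and PPAR-alpha target genes that were called with no overlap were searched on both strands for the E-box CACGTG, which BMAL1 and its partner bind, the D-box TTATGNAA, the direct repeat of AGGTCA with 1 base between its copies, and the cyclic AMP response element TGACGTCA. Each window, from RefSeq on GRCm38.p6, held 250 bases before and 50 after the annotated start. Of all 32851 such promoters, 7.15% held the E-box, 3.38% the D-box, 0.0396% the direct repeat and 1.79% the cyclic AMP element. The table held 12 of the 15 genes, and 3 had a match. They are shown because they carry these letters beside a difference between the diets, with each match in capitals. Ciart lies on the minus strand at chr3:95882179-95882478, Hlf on the minus strand at chr11:90390868-90391167 and Fgf21, described below, on the minus strand at chr7:45615441-45615740.
Ciart: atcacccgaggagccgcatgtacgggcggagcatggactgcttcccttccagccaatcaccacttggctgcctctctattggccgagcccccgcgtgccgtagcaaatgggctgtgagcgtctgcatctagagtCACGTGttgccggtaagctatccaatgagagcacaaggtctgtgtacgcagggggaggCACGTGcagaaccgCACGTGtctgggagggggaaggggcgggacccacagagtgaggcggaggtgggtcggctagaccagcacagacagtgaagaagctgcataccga
Hlf: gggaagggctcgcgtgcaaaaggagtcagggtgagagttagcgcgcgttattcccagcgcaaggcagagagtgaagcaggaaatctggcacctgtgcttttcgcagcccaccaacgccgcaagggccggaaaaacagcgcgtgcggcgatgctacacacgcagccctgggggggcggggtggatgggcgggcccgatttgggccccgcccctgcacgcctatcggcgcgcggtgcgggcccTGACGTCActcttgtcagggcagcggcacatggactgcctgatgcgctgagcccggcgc
Fgf21: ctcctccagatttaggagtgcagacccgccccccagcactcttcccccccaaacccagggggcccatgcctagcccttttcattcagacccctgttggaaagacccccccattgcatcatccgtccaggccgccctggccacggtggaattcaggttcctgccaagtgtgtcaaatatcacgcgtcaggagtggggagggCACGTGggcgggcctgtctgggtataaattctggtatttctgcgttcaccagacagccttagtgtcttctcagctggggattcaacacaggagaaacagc

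The Ciart window held 3 E-boxes, which begin 116, 58 and 44 bases before the start, that of Fgf21 held 1 E-box 50 bases before it, and that of Hlf held 1 cyclic AMP element 9 bases before it. The other 9 genes, Arntl, Npas2, Dbp, Nr1d1, Nr1d2, Rgs16, Alas1, Cidec and Cpt2, held none of these letters in the window, while Bhlhe40, Wee1 and Cyp4a10 were not found in the table. The start that RefSeq gives for Hlf was not found in a GENCODE transcript. A match describes the sequence and shows no binding.

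**Figure D3:**
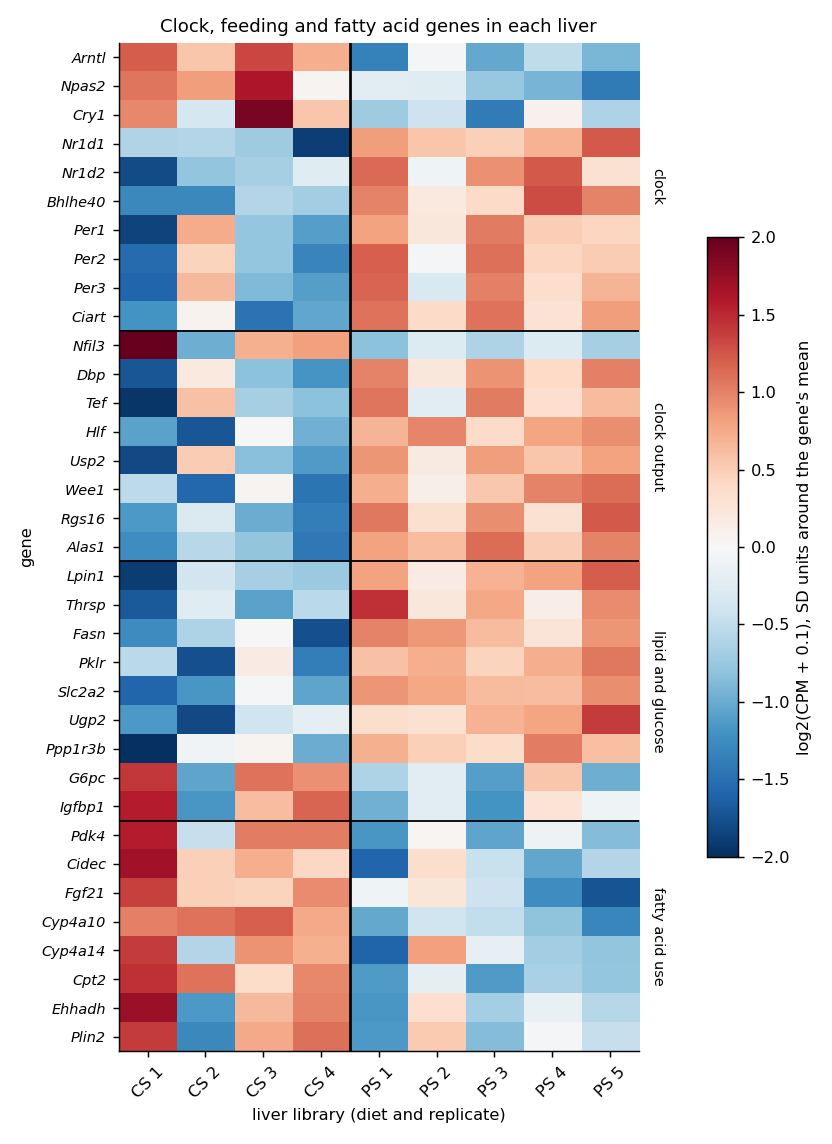
Rows are clock genes, clock outputs, lipid and glucose genes and genes of fatty acid use, columns are the 9 livers with CS to the left of the vertical line, and colour gives log2(CPM + 0.1) as SD units around the gene's mean. In the column of CS replicate 2 the colours of Per1, Per2, Per3, G6pc, Igfbp1, Ehhadh and Plin2 match those of the PS livers, whereas Arntl, Bhlhe40, Nr1d1, Slc2a2, Cyp4a10 and Cpt2 match the other controls.

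Alas1, which encodes the rate-limiting enzyme of heme synthesis and lies on chromosome 9 from 106233455 to 106248654, was at 259.7, 352, 317 and 239 CPM in CS and at 637, 586, 729, 557 and 693 CPM in PS. The gap between the groups was wide, with a log2 fold change of 1.13 ± 0.19 (SE, adjusted p = 0.0974 by edgeR). Heme is the cofactor of cytochrome P450 enzymes and the ligand of REV-ERB proteins. Of 28 genes of heme and iron handling, 2 rose (7.14%, beside 3.73% of all genes) and 0 fell, a count near the background. Without CS replicate 2 these were 3 and 0, beside 7.21% of all genes higher.

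Genes of fat and glucose metabolism were called equally often in both directions. In the list of fatty acid and triglyceride synthesis 6 of 31 genes rose (19.4%) and 6 fell (19.4%), or 7 and 7 without CS replicate 2, and in that of glucose, glycogen and insulin signaling 9 of 41 rose (22.0%) and 9 fell (22.0%). Over all genes these shares were 3.73% higher and 3.82% lower, and 7.21% and 6.83% without CS replicate 2. Of the glucose genes, 7 of those that rose and 0 of those that fell did not overlap between the diets. Over all genes 1.74% rose and 1.3% fell with no overlap. In the fit without CS replicate 2, 11 glucose genes rose and 10 fell. In that fit 10 were higher and 8 lower with no overlap, beside 5.18% and 5.52% of all genes.

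Lpin1, a phosphatidate phosphatase that makes diacylglycerol, on chromosome 12 from 16535669 to 16610966, was at 10.3, 63.6, 44.5 and 41.2 CPM in CS and at 257, 120.5, 226, 258 and 422 CPM in PS. Every PS mouse was well above the controls, with a log2 fold change of 2.69 ± 0.49 (SE, adjusted p = 0.105 by edgeR). Thrsp, a regulator of fatty acid synthesis, was at 20.4, 64.8, 33.4 and 51.4 CPM in CS and at 254, 95.1, 147, 87.8 and 169 CPM in PS. It rose without overlap by 1.82 ± 0.40 (SE) on the log2 scale. Its paralog Mid1ip1, which activates acetyl-CoA carboxylase, had a log2 fold change of 1.61. Fasn, the fatty acid synthase, was at 70.7, 93.5, 124 and 56.5 CPM in CS and at 191, 180.3, 163, 138 and 182 CPM in PS, a separation without overlap and a log2 fold change of 0.99 ± 0.23 (SE). Acss2, which makes acetyl-CoA from acetate, rose by only 0.47, and its exons share 395 bases with Gss on the other strand.

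Of the glucose genes, Slc2a2 (the glucose carrier GLUT2) was at 135, 156, 230.2 and 162 CPM in CS and at 318, 306, 292, 289.8 and 324 CPM in PS. The PS mice were close together and all above the controls, with a log2 fold change of 0.84 ± 0.19 (SE). Pklr, the liver pyruvate kinase, rose by 1.32, Pfkfb3, which makes the activator of phosphofructokinase, by 2.04, Ugp2, which makes UDP-glucose, by 0.85 and Ppp1r3b, which brings a phosphatase to glycogen, by 1.03. The exons of Pklr share 711 bases with Hcn3 on the other strand. Ppargc1a, a coactivator of fasting metabolism, rose as well, by 0.79. These 6 genes had no overlap.

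Among the glucose genes that fell, Igfbp1, a growth factor binding protein that insulin represses, was at 518, 43.7, 217 and 359.9 CPM in CS and at 52.4, 102, 42.3, 159 and 116 CPM in PS. G6pc, the glucose 6-phosphatase, was at 719, 181, 599 and 544 CPM and at 230.1, 290.3, 175, 445 and 188 CPM. Igfbp1 fell by 1.597 and G6pc fell by 0.94 on the log2 scale, and in both CS replicate 2 was the only control inside the PS range. Pck1, the rate-limiting enzyme of glucose synthesis, was not called (log2 fold change 0.38 ± 0.27, SE). CS replicate 2 was at 1566 CPM against 3049.5 to 3783 CPM in the other controls, and the log2 fold change of Pck1 was 0.16 without it.

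Targets of PPAR-alpha, the nuclear receptor that switches on fatty acid use in fasting, were called in 1 direction. Of 39 tested, 0 rose and 16 fell (41.0%, beside 3.82% over all genes), and 33 had a negative fold change, with a median of -0.44 beside -0.037. The genes that fell without overlap were Cidec, Fgf21, Cyp4a10 and Cpt2. Without CS replicate 2, 20 fell and 16 of the 39 lay below every control, beside 6.83% and 5.52% of all genes.

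Cyp4a10, an omega-hydroxylase of fatty acids on chromosome 4 from 115518264 to 115533649, was at 2937, 2998, 3080.2 and 2748 CPM in CS and at 1738, 2039, 1990.3, 1836 and 1611 CPM in PS. Both groups were tight and far apart, with a log2 fold change of -0.67 ± 0.16 (SE, adjusted p = 0.230 by edgeR). Its transcripts match those of Cyp4a31 and Cyp4a32 at 96.1% and 97.2% identity, so its own reads are uncertain. Cidec, a lipid droplet protein, was at 72.3, 23.6, 29.8 and 22.3 CPM in CS and at 3.40, 21.03, 9.97, 5.67 and 8.69 CPM in PS. Its highest PS mouse was just under the lowest control, and its log2 fold change was -1.92 ± 0.50 (SE). Fgf21, a hormone that the liver releases in fasting, was at 66.2, 31.4, 30.5 and 46.5 CPM in CS and at 19.9, 25.9, 15.04, 7.47 and 4.97 CPM in PS, again without overlap, with a log2 fold change of -1.58 ± 0.43 (SE). Cpt2, which passes fatty acids into the mitochondrial matrix, fell by 0.53 ± 0.16 (SE).

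Several further targets fell but overlapped. Ehhadh, an enzyme of peroxisomal fatty acid oxidation, was at 2416, 132, 819 and 1154 CPM in CS and at 129, 598, 214, 362 and 236 CPM in PS. Pdk4, which shuts off pyruvate oxidation, was at 69.2, 8.83, 39.9 and 39.7 CPM and at 4.33, 14.7, 4.84, 12.9 and 5.84 CPM. In both genes the only control within the PS range was CS replicate 2, and their log2 fold changes were -1.88 and -2.20. Plin2, which coats lipid droplets, fell by 1.05 but was not called in 13 of 19 alternative analyses, and in it CS replicate 2 was below every PS mouse while the other controls were above them all. Cyp4a14 (log2 fold change -0.89 ± 0.42, SE) was not called with all livers, but was called lower, at -1.14, without CS replicate 2.

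**Figure D4:**
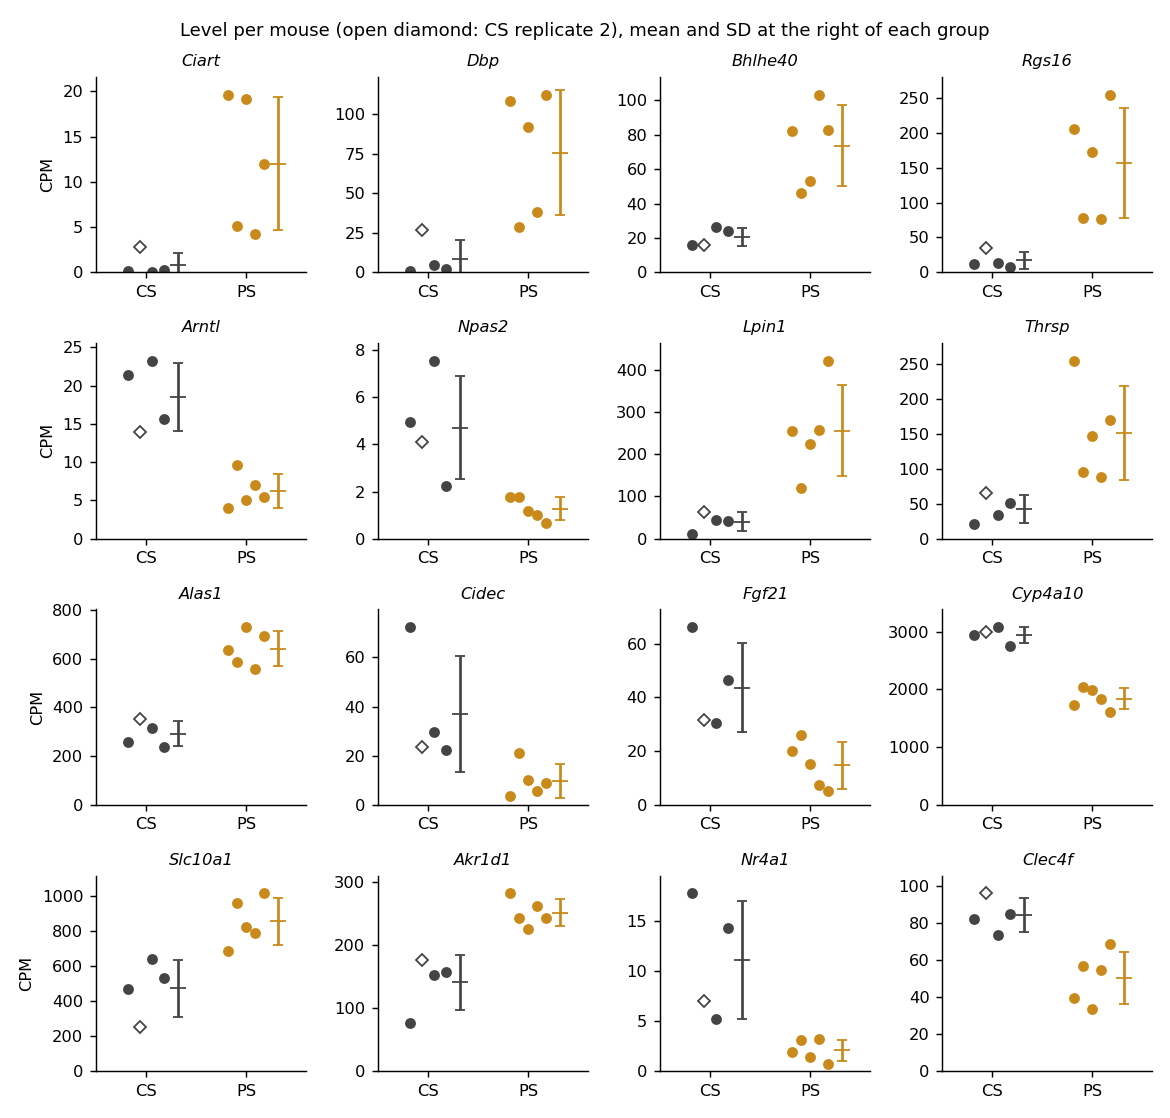
Each panel gives 1 gene's level in CPM in every liver from a y axis that starts at 0, CS in grey and PS in orange, with CS replicate 2 as an open diamond and the mean and SD to the right of each group. In all 16 panels the PS livers lie wholly above or wholly below the CS livers; for Dbp the gap is narrow, between 26.6 and 28.4 CPM.

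The enzymes of cholesterol synthesis, a pathway the study also picked out from these livers, so that its count is not independent evidence, rose in 13 of 20 (65.0%, and 13 without CS replicate 2), for example Sqle, the squalene epoxidase, by 1.91 on the log2 scale. Of 19 other genes of sterol sensing, uptake and SREBP2, 6 rose (31.6%) and 2 fell (10.5%), beside 3.73% and 3.82% of all genes, or 7 and 2 without CS replicate 2, beside 7.21% and 6.83%. Insig1, which holds the SREBP complex in the endoplasmic reticulum and is itself an SREBP target, was at 53.5, 57.9, 83.2 and 52.8 CPM in CS and at 160.5, 125, 134, 185 and 174 CPM in PS. The groups were well apart, with a log2 fold change of 1.33 ± 0.21 (SE, adjusted p = 0.0974 by edgeR). Stard4, a carrier of cholesterol in the cytosol, rose without overlap by 1.22. Insig2 went the other way with a log2 fold change of -0.88, with 648, 206, 752 and 886 CPM in CS and 207 to 509 CPM in PS. The overlap came from CS replicate 2 alone, and Insig2 had a log2 fold change of -1.17 when this liver was left out.

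The transporter of phytosterols did not pass the test. Abcg5 was at 37.4, 76.3, 51.5 and 88.1 CPM in CS and at 100.05, 60.9, 72.3, 62.3 and 72.3 CPM in PS, with a log2 fold change of 0.22 ± 0.26 (SE), and Abcg8 had one of -0.06 ± 0.23 (SE). The groups overlapped widely in both genes, and the exons of this pair share 82 bases on opposite strands.

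Among 24 genes of bile acids, 4 rose (16.7%) and 2 fell (8.33%), beside 3.73% and 3.82% of all genes, and without CS replicate 2 these were 6 and 3, beside 7.21% and 6.83%. Slc10a1, the sodium-dependent uptake carrier NTCP, was at 466, 250.4, 636 and 529 CPM in CS and at 685, 960.0, 818, 787 and 1012 CPM in PS. Every PS mouse was above the controls, with a log2 fold change of 0.86 ± 0.26 (SE). Akr1d1, the steroid reductase that gives bile acids their bent ring, was at 75.9, 175, 152 and 157 CPM in CS and at 281, 243, 224, 262 and 242 CPM in PS, also apart, with a log2 fold change of 0.84 ± 0.23 (SE). Slc10a2, the apical bile acid carrier, rose by 1.31 without overlap. Abcb4, which moves phosphatidylcholine into bile, was at 615, 401, 498 and 437 CPM in CS and at 337, 342, 286, 400.3 and 332 CPM in PS, where the highest PS mouse all but met the lowest control. Its log2 fold change was -0.52 ± 0.18 (SE). Nr0b2, the repressor SHP, rose by 1.22 with 1 PS mouse inside the CS range. Cyp7a1, the rate-limiting enzyme of bile acid synthesis, varied from 7.81 to 166 CPM in CS and from 31.4 to 92.4 CPM in PS and was not called (log2 fold change -0.44 ± 0.64, SE).

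Genes of detoxification were called in the upward direction only, in each of 3 lists: 6 of 38 cytochromes P450 of families 1 to 3 (15.8%), 8 of 49 transferases that conjugate foreign compounds (16.3%) and 11 of 50 alcohol, aldehyde and flavin oxidoreductases (22.0%), with 0 lower in each and 3.73% of all genes higher. Without CS replicate 2 these lists held 11, 14 and 14 higher and 1, 2 and 1 lower, beside 7.21% and 6.83% of all genes. Cyp2c38 was at 50.2, 57.1, 51.8 and 24.8 CPM in CS and at 108, 128, 165, 80.3 and 70.2 CPM in PS, with no overlap and a log2 fold change of 1.26 ± 0.31 (SE). Akr1c14, a hydroxysteroid dehydrogenase, was at 119, 122, 127 and 163 CPM in CS and at 217, 321, 239, 354 and 256 CPM in PS. Its groups were apart too, with a log2 fold change of 1.07 ± 0.20 (SE, adjusted p = 0.114 by edgeR). Adh1, the main alcohol dehydrogenase, was at 740.0, 843, 814 and 1187 CPM in CS and at 1492, 1689.9, 1572, 1235 and 1389.8 CPM in PS, without overlap.

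The sulfotransferase Sult1c2 had a log2 fold change of 1.38 and the acetyltransferase Nat1 of 1.21, both with no overlap and both at levels under 8 CPM. Ugt1a6a had one of 1.69, but it shares at least 1311 exonic bases with other Ugt1a genes, so its own reads are uncertain. Cyp2b10, a target of the receptor CAR, and the glutathione transferases Gsta3 and Gstm3 rose by 0.88, 0.79 and 0.97 with overlapping groups, where Gstm3 has a copy of 97.9% identity in Gm8834, overlapped only through CS replicate 2 (22.5 CPM) and rose by 1.47 without it, and Adh4 rose by 0.54 without overlap.

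In amino acid breakdown and the urea cycle, 1 of 55 genes rose (1.82%) and 6 fell (10.9%), beside 3.73% and 3.82% of all genes. In the fit without CS replicate 2, 3 rose and 10 fell, beside 7.21% and 6.83%. Mat1a, which makes S-adenosylmethionine in hepatocytes, was at 7045, 6834, 8774 and 8609 CPM in CS and at 4562, 6034, 4616, 5099 and 5152 CPM in PS. All PS mice were below the controls, with a log2 fold change of -0.62 ± 0.18 (SE). Agxt, which turns glyoxylate into glycine, and Sdsl, a serine dehydratase relative, fell by 0.53 and 0.65, and Otc, the ornithine transcarbamylase of the urea cycle, rose by 0.52, each without overlap.

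The highest mean FPKM among the called genes without overlap outside cholesterol synthesis belonged to Gc, Mat1a, Cyp4a10, Adh1, Pon1, Slc10a1, Agxt, Itih3, Herpud1 and Pecr, from 3124 FPKM in Gc to 127 FPKM in Pecr. Gc, the vitamin D carrier of plasma, was at 4722, 4533, 4957 and 5115 CPM in CS and at 6849, 6124, 6296, 5751 and 6730.5 CPM in PS, apart but only 0.39 higher on the log2 scale, and it was not called in 11 of 19 alternative analyses. Pon1, the paraoxonase of high-density lipoprotein, rose by 0.49 and Pecr, an enoyl-CoA reductase of peroxisomes, by 0.57. Itih3, a protein of the acute phase, fell by 0.42. Herpud1, which helps clear misfolded proteins from the endoplasmic reticulum, was at 386, 157, 227 and 267 CPM in CS and at 422, 494, 428, 846 and 652 CPM in PS. It rose without overlap by 1.13, while 2 of the 36 genes of the ATF4 and endoplasmic reticulum stress list rose (5.56%, beside 3.73% of all genes) and 4 fell (11.1%, beside 3.82%). With CS replicate 2 left out, 4 rose and 3 fell, beside 7.21% and 6.83% of all genes.

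Of 36 immediate early, p53 and growth arrest genes, 8 fell (22.2%) and 3 rose (8.33%), beside 3.82% and 3.73% of all genes, and without CS replicate 2 these were 10 and 1, beside 6.83% and 7.21%. Nr4a1, a nuclear receptor induced within minutes by hormones and stress, on chromosome 15 from 101254269 to 101274795, was at 17.7, 7.01, 5.22 and 14.3 CPM in CS and at 1.85, 3.07, 1.40, 3.15 and 0.729 CPM in PS. No PS mouse reached the controls, and the log2 fold change was -2.43 ± 0.46 (SE, adjusted p = 0.114 by edgeR). Socs2, which damps growth hormone signaling, and Plk2, a polo-like kinase, fell without overlap by 1.22 and 1.06.

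Zbtb16, a transcription factor, was at 1.6, 10.8, 8.71 and 5.89 CPM in CS and at 18.4, 23.1, 11.95, 40.3 and 28.8 CPM in PS. Fkbp5, a cochaperone of the glucocorticoid receptor, was at 38.5, 67.7, 63.0 and 49.6 CPM in CS and at 74.4, 81.7, 84.5, 78.6 and 148 CPM in PS. The diets did not overlap in either gene, with log2 fold changes of 1.86 and 0.77. Ddit4, an inhibitor of mTORC1, and Klf15, a Kruppel-like factor of fasting metabolism, rose without overlap by 1.57 and 0.87, and Tsc22d3 by 1.36 with 1 PS mouse inside the CS range.

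The largest remaining differences under the naming rule lay in genes of varied roles. Snai2, a repressor of epithelial genes, rose by 1.65. Pitx3, a homeodomain factor, was at 20.9, 7.55, 16.8 and 10.6 CPM in CS and at 1.16, 2.27, 2.22, 7.53 and 4.31 CPM in PS, where the nearest values of the diets almost met. Its exons share 10 bases on the other strand with Elovl3, a clock output with a mean count of 6809, so some of its reads may be those of its neighbour. Rnf144a, a ubiquitin ligase, Kctd17, an adaptor of ubiquitin ligases, Lhfpl2 and E030018B13Rik fell by 1.71, 1.58, 1.30 and 1.36. In lipid handling, Agpat2 and Chka, which act in phospholipid and triglyceride synthesis, fell by 0.34 and 1.00 without overlap. Agpat2 was not called in 12 of 19 alternative analyses, and the fall of Chka was 0.52 without CS replicate 2, where it was at 191 CPM against 68.2 to 83.1 CPM in the other controls.

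Genes of DNA synthesis and cell division rose in 6 of 36 cases (16.7%) and fell in 2 (5.56%), beside 3.73% and 3.82% of all genes. With CS replicate 2 left out, 5 of 37 rose and 1 fell, beside 7.21% and 6.83% of all genes. Pold2, a subunit of DNA polymerase delta, was at 2.98, 6.199, 5.34 and 5.83 CPM in CS and at 9.43, 8.64, 10.6, 7.25 and 10.2 CPM in PS, without overlap. Dut and Tyms, which supply thymidine nucleotides, rose by 0.56 and 0.46, also without overlap. All 3 stayed at or under 10.6 CPM in every liver.

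Genes of cell junctions and the cytoskeleton fell in 9 of 61 cases (14.8%) and rose in 2 (3.28%), beside 3.82% and 3.73% of all genes, and matrix genes fell in 3 of 41 (7.32%) and rose in 0. Of the matrix genes 38 of 41 had a negative fold change with a median of -0.40, beside 6548 of 11869 and -0.037 over all genes. When CS replicate 2 was left out, 11 junction and cytoskeleton genes fell and 0 rose, and 6 matrix genes fell and 1 rose, beside 6.83% of all genes lower and 7.21% higher. Cldn5, a claudin of endothelium, was at 9.88, 10.8, 5.92 and 9.35 CPM in CS and at 1.70, 4.83, 2.33, 2.64 and 5.24 CPM in PS. It fell without overlap by 1.42. Pxn, a protein of focal adhesions, and Sparc and Reln, matrix proteins, fell by 0.37, 0.52 and 0.55. Beside these genes, 2 of 12 endothelial markers were called lower, and of 10 stellate cell markers only Reln, already counted among the matrix genes, was. Over all genes 3.82% were called lower. The summed levels of both marker lists were 173 to 292 CPM and 162 to 277 CPM in CS against 120 to 233 CPM and 140 to 215 CPM in PS. Of 3 smooth muscle markers tested, Acta2, which is also in the cytoskeleton list, was called lower with a log2 fold change of -2.20, and the median was -1.31. The 6 smooth muscle markers summed to 22.5, 24.5, 3.60 and 3.84 CPM in CS and to 2.70 to 6.65 CPM in PS, so that only CS replicates 1 and 2 were above the PS livers. The part of these cell types in the result was not tested.

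Of 12 markers of Kupffer cells, the macrophages of the liver, 3 were called lower in the PS group (Clec4f, C1qa and Csf1r), beside 3.82% of all genes. The median log2 fold change of the 12 was -0.70, beside -0.037 over all genes. The summed level of these markers was 309 to 436 CPM in CS and 107 to 367 CPM in PS, so the groups overlapped. Clec4f, a lectin restricted to these cells, was at 82.3, 96.0, 73.4 and 84.8 CPM in CS and at 39.3, 56.5, 33.2, 54.7 and 68.4 CPM in PS. Fcna, a ficolin of macrophages, was at 36.3, 37.1, 29.1 and 42.0 CPM and at 17.0, 26.4, 12.2, 25.8 and 19.0 CPM. Both were lower in every PS mouse, by 0.74 and 0.85 on the log2 scale. Both were lowest in PS replicates 1 and 3, the PS livers with 13.3% and 9.79% of counts on the mitochondrial genome. In CS replicate 2, where this share was 14.4%, Clec4f was at 96.0 CPM and Fcna at 37.1 CPM. The part of the mitochondrial share in these levels was not tested. C1qa (-0.76) and Csf1r (-0.65) overlapped and were not called without CS replicate 2. In bulk tissue, fewer cells of a type and less RNA per cell cannot be told apart.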

How the data were processed

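Per the labels, mRNA of 9 livers was caught on poly-T beads and sequenced, and the authors deposited raw counts per gene without normalization together with FPKM values. By the submitters' processing notes, reads were aligned to mm10 with HISAT2 2.0.5 and counted with featureCounts 1.5.0-p3, and DESeq2 1.20.0 was used. Per the study's methods, these tools aligned the reads, counted them per gene and tested the diets, in that order. The gene model and the strand setting of the counting are not given in the sources used here. Both kinds of table held 54532 genes with symbols.

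From the counts, edgeR 4.0.16 in R 4.3.3 (TMM, its default filter on low counts, robust quasi-likelihood test, two-sided) compared PS with CS on 13195 genes of any biotype, with Benjamini-Hochberg adjustment over all of them, and the 11869 protein-coding genes were then reported. Levels are CPM on TMM-scaled library sizes. Library measures were compared by exact permutation over mice with scipy 1.17.1. The precision of a value rests on library totals of 14410117 to 17625179 counts. By its label each library is 1 mouse, and no pair of libraries of a diet was as close as counting noise. Promoter sequences are from RefSeq (GRCm38.p6). Exon overlaps on either strand and transcripts at 95% identity over at least 200 bases were sought in GENCODE M21.

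Simulated counts with 100 genes changed at each size were tested over 13279 genes for this comparison: edgeR's adjusted calls recovered 100 of 100 at an absolute log2 fold change of 2 and 71 of 100 at 1, with 6 unchanged genes called. At the unadjusted threshold edgeR called 629 unchanged genes, and DESeq2's adjusted test called 16. The simulated spread between mice was assumed, not estimated from these livers, and no simulated library stood apart. The simulation checks the code and does not give the power of the tests in these livers.

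Named genes were those outside cholesterol synthesis and the study's named genes whose mean log2 CPM was 1 or more, with an unadjusted p of at most 0.05 and no overlap: the 12 largest rises and falls, the 10 highest in FPKM, up to 8 in each list and up to 8 transcription factors, with list members given as not called. Not each gene so chosen is reported here. Members and lists were chosen with earlier results of these data known. Alternatives were DESeq2 size factors, DESeq2 1.42.0's Wald test, a run without the filter, one asking for 10 counts or more in each library, limma-trend 3.58.1 on log2(FPKM + 1) and log2(FPKM + 0.1) of the deposited FPKM, a replicate block, removal of trends with gene length or GC content, and leaving out each library. Removal of both trends together, and the lists without CS replicate 2, were added after the data were seen.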

Additional observations from a re-analysis of the deposited data

Results flagged for a closer look

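In 226 groups of 4 or 5 values, 19 held a value far from the others by Dixon's criterion at 95%, where chance gives about 1 in 20. Of these values 7 belonged to CS replicate 2. They were the highest CS levels of Chka (191 CPM), Ciart (2.76 CPM), Dbp (26.6 CPM), Per3 (12.7 CPM) and Usp2 (28.9 CPM), its 14.4% of counts on the mitochondrial genome, and its 15961 genes with a count, the fewest in CS. CS replicate 1 was lowest in Adk (541 CPM) and highest in Adra2b (5.63 CPM), Cidec (72.3 CPM), Lhfpl2 (5.79 CPM) and Mup10 (1171 CPM). CS replicate 3 was highest in Insig1 (83.2 CPM). CS replicate 4 was lowest in Nr1d1 (20.4 CPM) and highest in Otc (393 CPM) and Pon1 (1007 CPM). Among the PS mice, replicate 1 was highest in Nr0b2 (161 CPM) and Mup10 (5.87 CPM), and replicate 5 in Fkbp5 (148 CPM). The genes searched were those picked for the text, some after their values were seen. The count for CS replicate 2 can therefore not be set against the chance rate. The cause of these values was not tested.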

How the results depend on the processing

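The count of genes called after adjustment depended on the tool and filter. Genes higher at an adjusted p under 0.05 numbered 94 with DESeq2, 15 with no filter, 2 and 1 with limma on log2(FPKM + 1) and log2(FPKM + 0.1), 1 with the GC trend removed and 1 with at least 10 counts in every library, and genes lower numbered 50 with DESeq2 and 4 with no filter. Leaving out 1 library at a time gave 310 to 863 genes called higher and 305 to 817 lower at the unadjusted threshold, 0 to 33 and 0 to 20 after adjustment, and 277 to 620 higher and 241 to 660 lower with no overlap, where fewer mice make separation easier. The highest counts came without CS replicate 2. Without CS replicates 3 or 4, genes with no overlap numbered 433 and 467 higher and 361 and 400 lower, and without PS replicate 2, 302 were lower. Replicate numbers did not pair the mice: deviations of same-numbered livers from the mean of their diet correlated at -0.36, -0.29, -0.34 and -0.029. A replicate block called 210 genes higher and 215 lower. The difference in total counts, 0.032 in units of 1e+06 counts, ranged from -0.31 to 0.49 without 1 library and was -0.25, -0.31, -0.24 and -0.045 without CS replicate 2 and PS replicates 2, 3 and 4. The difference in mitochondrial share ranged from 0.018 to 3.98 percentage points, with 3.98 and an exact permutation p of 0.0357 without CS replicate 2, and that in genes with a count from -50.7 to 1079.5. Abcg8 ranged from -0.23 to 0.088 without 1 library and turned to 0.088, 0.070 and 0.0021 without CS replicates 3 and 4 and PS replicate 3. Cyp7a1 turned to 0.18 and 0.091 with limma at pseudocounts 0.1 and 1, 0.36 with the replicate block and ranged from -0.81 to 0.47, the latter without CS replicate 1, when 1 library was left out. Mup10 ranged from -7.14 to 0.25, the latter also without CS replicate 1. Of the 102 called genes examined, 64 were called in each of 19 alternatives, and 31 were not called with the block. Of the 19, Insig2 was not called in 10, Csf1r, G6pc and Per3 in 9 each, Tyms in 8, Per1 in 7, and C1qa, Itih3 and Tef in 6 each. The causes were not tested.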

Other observations

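Mup10, a major urinary protein gene, had the most negative fold change of the called genes and rested on 1 mouse. It was at 1171 CPM in CS replicate 1 and at 0.809 to 5.87 CPM in the other 8 livers, and its log2 fold change was -6.71 with all livers and 0.25 without that mouse. Its transcripts match those of other Mup genes, for example Mup9 at 99.5% identity, so its reads are uncertain. Of 18 major urinary protein genes tested, 0 rose and 1 fell (5.56%, beside 3.82% of all genes). These counts were the same without CS replicate 2, beside 6.83% of all genes lower. Of 302 numbered zinc finger genes, 9 rose (2.98%) and 1 fell (0.331%), beside 3.73% and 3.82% of all genes, and without CS replicate 2 these were 21 and 5, beside 7.21% and 6.83%. Of 239 solute carrier genes 21 rose (8.79%) and 17 fell (7.11%), beside 3.73% and 3.82% of all genes. Without CS replicate 2 these were 33 and 30 of 240, beside 7.21% and 6.83%.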
